A study of Mus musculus with 12 samples.

Results

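The genes described here encode splicing factors and other RNA-binding proteins of kidney cortex in a mouse model of non-alcoholic steatohepatitis (NASH). They were taken by symbol: Srsf followed by a digit, Hnrnp, Rbm followed by a digit, Sf3a or Sf3b followed by a digit, and Cirbp. Of 11614 genes with values, 72 met this rule: 10 Srsf, 20 Hnrnp, 31 Rbm other than Rbm3, 9 Sf3a or Sf3b genes, and the cold-inducible pair Cirbp and Rbm3. RefSeq has 80 protein-coding mouse genes whose symbols meet the rule. Of these, 7 had no row and were not analysed here (Rbm11, Rbm12b1, Rbm24, Rbm31y, Rbm44, Rbm46 and Srsf12), and 1 was listed under another symbol.

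The mice were C57BL/6J. The NASH groups had a Western diet (WD) and CCl4, a liver toxin, and the control groups a normal diet and corn oil, for 12 or 24 weeks. Total RNA from the cortex gave 3 libraries for each of the 4 groups. The labels list 6 mice for either group at 12 weeks, 8 controls and 10 NASH mice at 24 weeks, males and females in equal number, and RNA integrity above 7.5. They do not say whether a library holds 1 mouse or a pool, which sex it came from or at what hour tissue was taken, so p-values measure the spread between these libraries, which may be technical. The depth estimated from the smallest step between low values was 7170000 to 14050000 reads per library. Depth differed between the groups at 12 weeks. Replicates 1, 2 and 3 had 12670000, 13740000 and 13060000 reads in controls and 12450000, 7170000 and 8230000 in NASH. At 24 weeks they had 10070000, 14050000 and 11230000 in controls and 12300000, 11290000 and 8280000 in NASH. The part of depth in the NASH differences was not tested.

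Replicate 1 stood apart from replicates 2 and 3 in every group. Xist, the RNA of the inactive X chromosome, was at log2 values of 10.60 to 11.54 in replicate 1, while replicates 2 and 3 gave 2.97 to 4.86; the Y-linked Ddx3y gave 2.48 to 4.25 and 8.95 to 9.62. Deviations from the group means were alike in libraries that share a number (correlation 0.19 to 0.74), but also between replicates 2 and 3 (0.19 to 0.64). The likeness thus sets replicate 1 apart and does not match replicates 2 and 3 across groups. For each NASH comparison calls are also counted with the replicate number as a block in the fit, but single genes are not always given both ways. A pair below means libraries of the same number. Proximal tubule markers, 7 of 7 measured, summed to 19.07 to 19.77 on the log2 scale in all libraries. Markers of T and B cells (0 of 4) and adrenal cortex (0 of 4) are not among the genes with values.

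Splicing removes introns from a pre-mRNA at sites that are recognised by small nuclear ribonucleoproteins and modulated by proteins bound nearby. SR proteins, encoded by Srsf genes, mostly bind exonic enhancers and favour use of the splice sites beside them. Proteins of heterogeneous nuclear ribonucleoproteins, encoded by Hnrnp genes, coat the transcript and often repress or displace that choice. The SF3A and SF3B complexes sit in the ribonucleoprotein that recognises the branch point. The Rbm symbol joins genes by an RNA recognition motif only, so its members range from splicing regulators to mRNA stability factors. Cirbp and Rbm3 encode small glycine-rich proteins of this kind, whose mRNAs rise when cells are mildly cooled. In mouse tissues both follow the daily rhythm of body temperature, and CIRBP helps to keep the amplitude of the circadian clock.

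The sequence upstream of 2 genes is shown because Cirbp and Rbm38 had the lowest values of all members in replicate 1 relative to replicates 2 and 3. Each is the 250 bases before the RefSeq start on the plus strand of GRCm38.p6. Capitals mark the octamer TCCCCGCC, which has been described as a mild-cold response element of the Cirbp gene. The Cirbp stretch is chr10:80167589-80167838 and the Rbm38 stretch is chr2:173021652-173021901.
Cirbp: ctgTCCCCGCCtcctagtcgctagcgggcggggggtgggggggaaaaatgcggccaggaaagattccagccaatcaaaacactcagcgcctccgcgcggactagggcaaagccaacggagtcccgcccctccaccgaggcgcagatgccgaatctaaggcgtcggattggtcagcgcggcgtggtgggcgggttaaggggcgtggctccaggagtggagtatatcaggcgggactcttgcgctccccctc
Rbm38: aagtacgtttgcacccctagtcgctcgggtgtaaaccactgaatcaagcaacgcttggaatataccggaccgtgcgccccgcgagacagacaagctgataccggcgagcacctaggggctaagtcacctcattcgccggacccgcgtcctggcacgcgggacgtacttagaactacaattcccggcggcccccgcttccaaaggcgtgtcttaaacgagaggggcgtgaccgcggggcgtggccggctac

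Cirbp holds the octamer at -247 to -240 from its start, and its 250 bases have a GC content of 65.6%. The Rbm38 stretch, with a GC content of 61.6%, does not hold these letters. Both strands were searched in windows of 300 bases, 250 before to 50 after a start. The octamer was in 5.38% of all 32851 RefSeq windows and in 5 of 81 windows of members (6.17%): Cirbp, Hnrnpa0, Hnrnpf, Rbm19 and Srsf7. The E-box CACGTG, to which the clock activators bind, was in 7.15% of all windows and in 8 of 81 windows of members (9.88%), which are those of Hnrnpa3, Hnrnpd, Hnrnpf, Hnrnph2, Hnrnpm, Rbm15b, Rbm19 and Rbm43. The D-box TTATGTAA was in 0.938% of all windows and in 0 of members, and TTATGCAA in 0.743% of all and 1 of members (1.23%, Rbm45). Windows were found for 62 of the 72 members and Rbm3 has none.

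The members were somewhat more abundant than the other genes. Their median log2 level was 9.06 against 8.62 for all genes, and per kilobase of transcript 7.73 against 7.08. Their median GC content was 46.8% against 50.3%, and their median length 2765 bases against 2893. Levels between genes are compared per kilobase from here on, on the log2 scale. Hnrnpf, which binds G-rich runs beside splice sites, was the highest Hnrnp gene by mean value over the 12 libraries, with a level of 10.7 per kilobase. Hnrnph3 had the lowest mean value of that family and 6.55 per kilobase. Among Rbm genes Rbm47, an epithelial RNA-binding protein, had the highest mean value and 8.97 per kilobase. Rbm20, which regulates titin splicing in striated muscle, had the lowest mean value and 3.50 per kilobase, at the 1.2 percentile of all genes. Picked likewise as highest and lowest by mean value, Srsf11 stood at 9.01 and Srsf1 at 4.24 per kilobase, and Sf3b2 at 9.60 and Sf3b5 at 8.74. Genes picked by mean value need not be the extremes per kilobase. Rbm3 was at 9.48, the 86.8 percentile, and Cirbp at 7.81, the 64.4 percentile.

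Cirbp (gene ID 12696, chromosome 10, 80167841 to 80171653, plus strand, mm10) had mean differences near 0 between NASH and control at both times. Its log2 values in replicates 1, 2 and 3 were 7.24, 8.33 and 8.32 in controls at 12 weeks, with a mean of 7.97 ± 0.62 (SD, n = 3). In NASH at 12 weeks they were 7.88, 8.06 and 8.10, with a mean of 8.01 ± 0.11 (SD, n = 3). The 24-week controls read 7.51, 8.55 and 8.78, and the 24-week NASH libraries 7.94, 8.65 and 8.29. Replicate 1 was the lowest library of every group, and the groups overlap at both times. The NASH difference was +0.05 (SE 0.36) at 12 weeks, with an adjusted p of 0.962 in limma, and +0.02 (SE 0.36) at 24 weeks, adjusted p 0.999. With the block the SE fell to 0.21 and the adjusted p-values were 0.90 and 0.99. Adjusted p-values throughout are from limma, with the Benjamini-Hochberg method over all 11614 genes, or 11579 where GC and length trends were removed. A gene is called below 0.05.

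The Cirbp pairs did not share a sign. At 12 weeks the NASH library was higher by 0.64 in replicate 1 and lower by 0.27 and 0.23 in replicates 2 and 3. At 24 weeks the differences were +0.43, +0.10 and -0.48. In replicates 2 and 3 alone the NASH difference was -0.25 at 12 weeks, adjusted p 0.388, and -0.19 at 24 weeks, adjusted p 0.755.

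Rbm3 (gene ID 19652, chromosome X, 8142356 to 8145880, minus strand) was higher in every NASH library than in every control at 24 weeks, which missed the threshold, and was not higher at 12 weeks. At 24 weeks the controls read 9.23, 9.83 and 9.85 (mean 9.64 ± 0.35, SD, n = 3) and the NASH libraries 9.89, 10.34 and 10.86 (mean 10.36 ± 0.48, SD, n = 3). The groups did not overlap, and NASH was above control in all 3 pairs, by 0.66, 0.51 and 1.01. The difference was +0.72 (SE 0.27), or 1.65-fold, with an unadjusted limma p of 0.0218 and an adjusted p of 0.999. With the block the SE was 0.17 and the adjusted p 0.380.

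At 12 weeks the Rbm3 controls read 9.46, 10.19 and 10.18 (mean 9.94 ± 0.42, SD, n = 3) and the NASH libraries 9.72, 9.55 and 9.76 (mean 9.68 ± 0.11, SD, n = 3). Here replicates 2 and 3 were lower in NASH and replicate 1 was higher, for a difference of -0.27 (SE 0.27), adjusted p 0.675 in limma and 0.320 with the block. The 24-week difference exceeded the 12-week one by 0.99 (SE 0.38), adjusted limma p of 1 and 0.184 with the block. Over replicates 2 and 3 alone it exceeded it by 1.29 (SE 0.23), adjusted p 0.0398. From 12 to 24 weeks Rbm3 was higher in NASH by 0.69 (SE 0.27) with no overlap, adjusted p 0.999, 0.196 with the block and 0.0104 in replicates 2 and 3 alone. In controls it was lower by 0.30 at 24 weeks, adjusted p 0.803. Without replicate 3 of NASH at 24 weeks the NASH time difference was 0.44 and the 24-week NASH difference 0.48. Without replicate 1 of the 12-week controls, the 12-week NASH difference was -0.51 and the control time difference -0.55. Over all single omissions these ran from -0.51 to -0.14 and from -0.55 to -0.10. These contrasts share the 12 libraries.

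**Figure D1:**
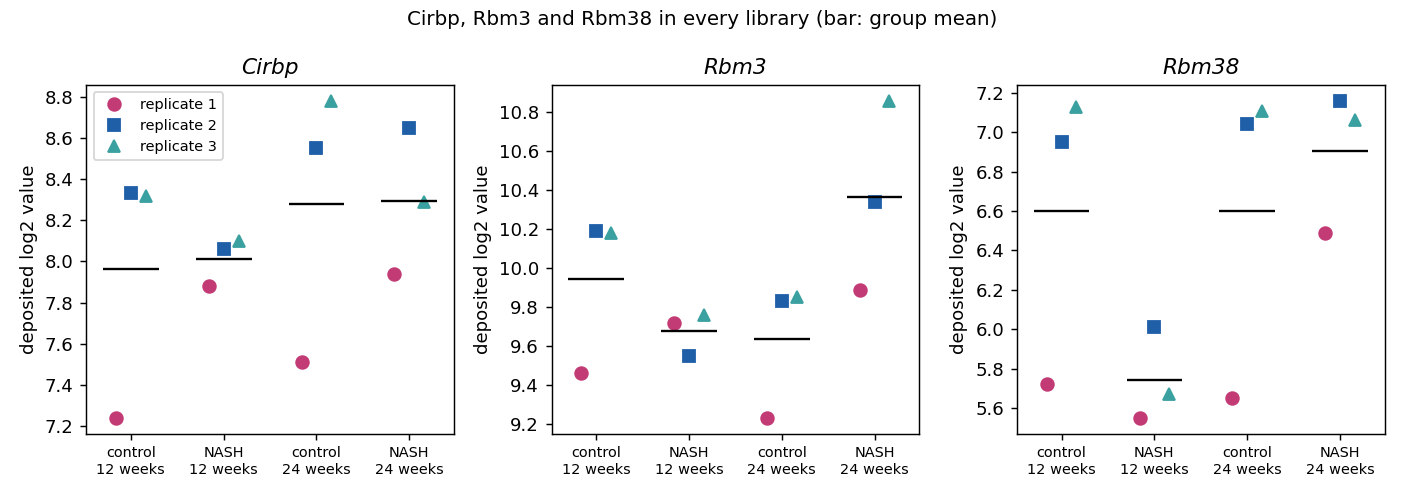
Deposited log2 values of Cirbp, Rbm3 and Rbm38 in each library, by group on the horizontal axis; symbols mark replicates 1, 2 and 3 and the bar is the group mean. Replicate 1 is the lowest library in every control group, at 7.24 and 7.51 for Cirbp, and Rbm3 in NASH at 24 weeks lies above its controls.

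Both cold-inducible genes were lower in replicate 1 than in replicates 2 and 3. This comparison, added after the values were seen, used group means plus a term for replicate 1. Cirbp was lower by 0.74 on the log2 scale (SE 0.15, 1.67-fold, adjusted limma p 0.00183) and Rbm3 by 0.50 (SE 0.13, adjusted limma p 0.00878). The replicate 1 values of Cirbp, 7.24 to 7.94, were below all 8 values of replicates 2 and 3, which lie from 8.06 to 8.78. For Rbm3 the 2 sets overlap, at 9.23 to 9.89 against 9.55 to 10.86. The median of all genes was 0.198 higher in replicate 1 as deposited and 0.004 higher under median-of-ratios scaling, in which Cirbp was lower by 0.93 (adjusted limma p 0.000369) and Rbm3 by 0.69 (adjusted limma p 0.00152).

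The Cirbp gap between replicate 1 and the rest was wider in controls than in NASH, without passing the adjusted test. It was -1.12 in controls and -0.36 in NASH, a difference of +0.76 (SE 0.21) with an unadjusted limma p of 0.00378 and an adjusted p of 0.407. Leaving out 1 library at a time gave +0.59 to +0.93. For Rbm38 the gaps were -1.37 and -0.46, a difference of +0.92 (SE 0.30, unadjusted limma p 0.0111, adjusted p 0.565), and for Rbm3 -0.67 and -0.32, a difference of +0.35 (SE 0.25, adjusted limma p 0.822). The Rbm3 difference was -0.03 without replicate 1 of NASH at 12 weeks. In this test 0 of 11614 genes were called (0%). At an unadjusted p under 0.05, 4 members were higher in that difference (Cirbp, Rbm38, Rbm48 and Hnrnpd) against 4.79% of all genes, and 0 were lower against 2.58%.

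Rbm38, which binds AU-rich elements and is a target of p53, had levels across the libraries like those of Cirbp and Rbm3. Rbm38 (gene ID 56190, chromosome 2, 173021902 to 173034731, plus strand) read 5.72, 6.95 and 7.13 in controls at 12 weeks (mean 6.60 ± 0.77, SD, n = 3) and 5.55, 6.01 and 5.67 in NASH (mean 5.75 ± 0.24, SD, n = 3). At 24 weeks the values were 5.65, 7.04 and 7.11 in controls and 6.49, 7.16 and 7.06 in NASH. Replicate 1 was the lowest library of each group. It was lower in NASH at 12 weeks in 3 of 3 pairs, by 0.85 in mean (SE 0.46), with adjusted limma p-values of 0.410 without and 0.0627 with the block. In replicates 2 and 3 alone it fell by 1.19 (SE 0.24, adjusted limma p 0.0269), the 1 member called there, against 0.818% of all genes higher and 2.50% lower. In NASH it was higher at 24 than at 12 weeks by 1.16 (SE 0.46) without overlap, adjusted limma p 0.999, 0.183 with the block and 0.0152 in replicates 2 and 3 alone. Over the 12 libraries the Pearson correlation of Rbm38 with Cirbp was 0.82 and with Rbm3 0.74, and of Cirbp with Rbm3 0.61. After group means were subtracted these were 0.97, 0.81 and 0.78. The libraries share the difference of replicate 1, so the correlations are descriptions.

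Correlations were ranked among all genes other than predicted or clone-named loci, which were left out. The genes whose values over the 12 libraries were most like those of Cirbp, by Pearson correlation, were Chmp6 and Zfp87 at 0.95, Pdcd2 at 0.94, and Reep6 and Mboat7 at 0.93. Those most opposed were Cep85l, Arf6 and Lman2l at -0.96, Steap2 at -0.95 and Unc13b at -0.94. After subtraction of group means, Syne4 and Chmp6 reached 0.98 and Pde4c, Mpg and Slc11a2 0.97, while Unc13b reached -1.0 and Cep85l, Csl, Lcor and Lman2l -0.97. For Rbm3 the closest were Sigirr and Mterf4 at 0.87, Stra6l at 0.83, and Rab9 and Adal at 0.81. The most opposed to Rbm3 were Tbc1d2 at -0.91, Hspa4l, a heat shock protein of the Hsp110 kind, at -0.89, Zfp526 at -0.87, and Fabp3 and Il12rb1 at -0.84. After subtraction Osbpl10 (0.98), Spg7 (0.96), Gimap9 (0.94), Galnt6 and Klhdc9 (0.93) were closest to Rbm3. The lowest were then Hdhd2 (-0.97), Vps36, Ankrd24 and Nek1 (-0.96) and Hnrnpll (-0.95), itself a member. Cirbp had a correlation of -0.81 with Xist and -0.77 with Hspa4l, or -0.87 and -0.87 after subtraction, and its correlation with the clock output gene Dbp was 0.23, or 0.54 after subtraction. With the clock gene Per3 the correlation of Cirbp was 0.16, or 0.49 after subtraction. With the chaperone genes Hspa8, Hsp90aa1 and Hsph1 it was 0.11, -0.35 and -0.68, or -0.11, -0.67 and -0.78 after subtraction. Rbm3 had 0.21, -0.64 and -0.57 with these chaperone genes, or 0.12, -0.78 and -0.52 after subtraction. With Dbp and Per3 Rbm3 had -0.14 and -0.11, or 0.32 and 0.07.

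Clock genes were among those called at 12 weeks, unlike Cirbp. Of 18 clock genes listed, 16 were measured. Without the block 1 rose (Dbp) and 1 fell (Npas2), and with it 8 rose and 4 fell. Dbp, whose transcription follows the clock closely, read 5.01, 5.19 and 3.54 in controls and 9.87, 10.25 and 10.07 in NASH, a rise of 5.48 (SE 0.78, adjusted limma p 0.0468). Npas2, a clock activator, fell by 2.61 (SE 0.28, adjusted limma p 0.00984) from 8.14, 8.67 and 9.08 to 6.29, 5.92 and 5.85. Bmal1, listed as Arntl, fell by 1.64 and Per2 rose by 1.24 with the block (adjusted limma p 0.00394 and 0.00860). At 24 weeks 0 of the 16 were called in either fit, and the difference of Dbp was -0.20. The part of the hour of dissection in these values was not tested. Of 16 heat shock chaperones 0 were called at either time in either fit, with a median difference of -0.02 at 12 weeks and -0.09 at 24 weeks. Hspa8, the constitutive Hsp70, was 0.20 higher at 12 weeks (SE 0.25), and Hsp90aa1 was 0.28 lower (SE 0.11), adjusted limma p 0.307.

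At 12 weeks 55 of the 72 members had a negative and 17 a positive difference of NASH from control, with a median of -0.22, whereas 40.4% of all genes were positive and their median was -0.08. In the fit without the block 0 members were called, against 0.0172% of all genes higher and 0.0344% lower. At an unadjusted limma p under 0.05, 2 members were higher and 8 lower, against 5.40% and 9.10% of all genes. With the block 1 member rose and 10 fell (1.39% and 13.9% of the members), against 3.01% and 9.85% of all genes. By family, 1 of 10 Srsf, 4 of 20 Hnrnp, 3 of 31 Rbm and 2 of 9 Sf3a or Sf3b genes fell with the block, with median differences of -0.13, -0.22, -0.28 and -0.06. In bulk RNA, fewer cells of a type and less RNA per cell cannot be told apart. In 21 members all NASH libraries lay below all controls and in 2 all lay above (29.2% and 2.78%), against 14.4% and 8.14% of all genes.

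**Figure D2:**
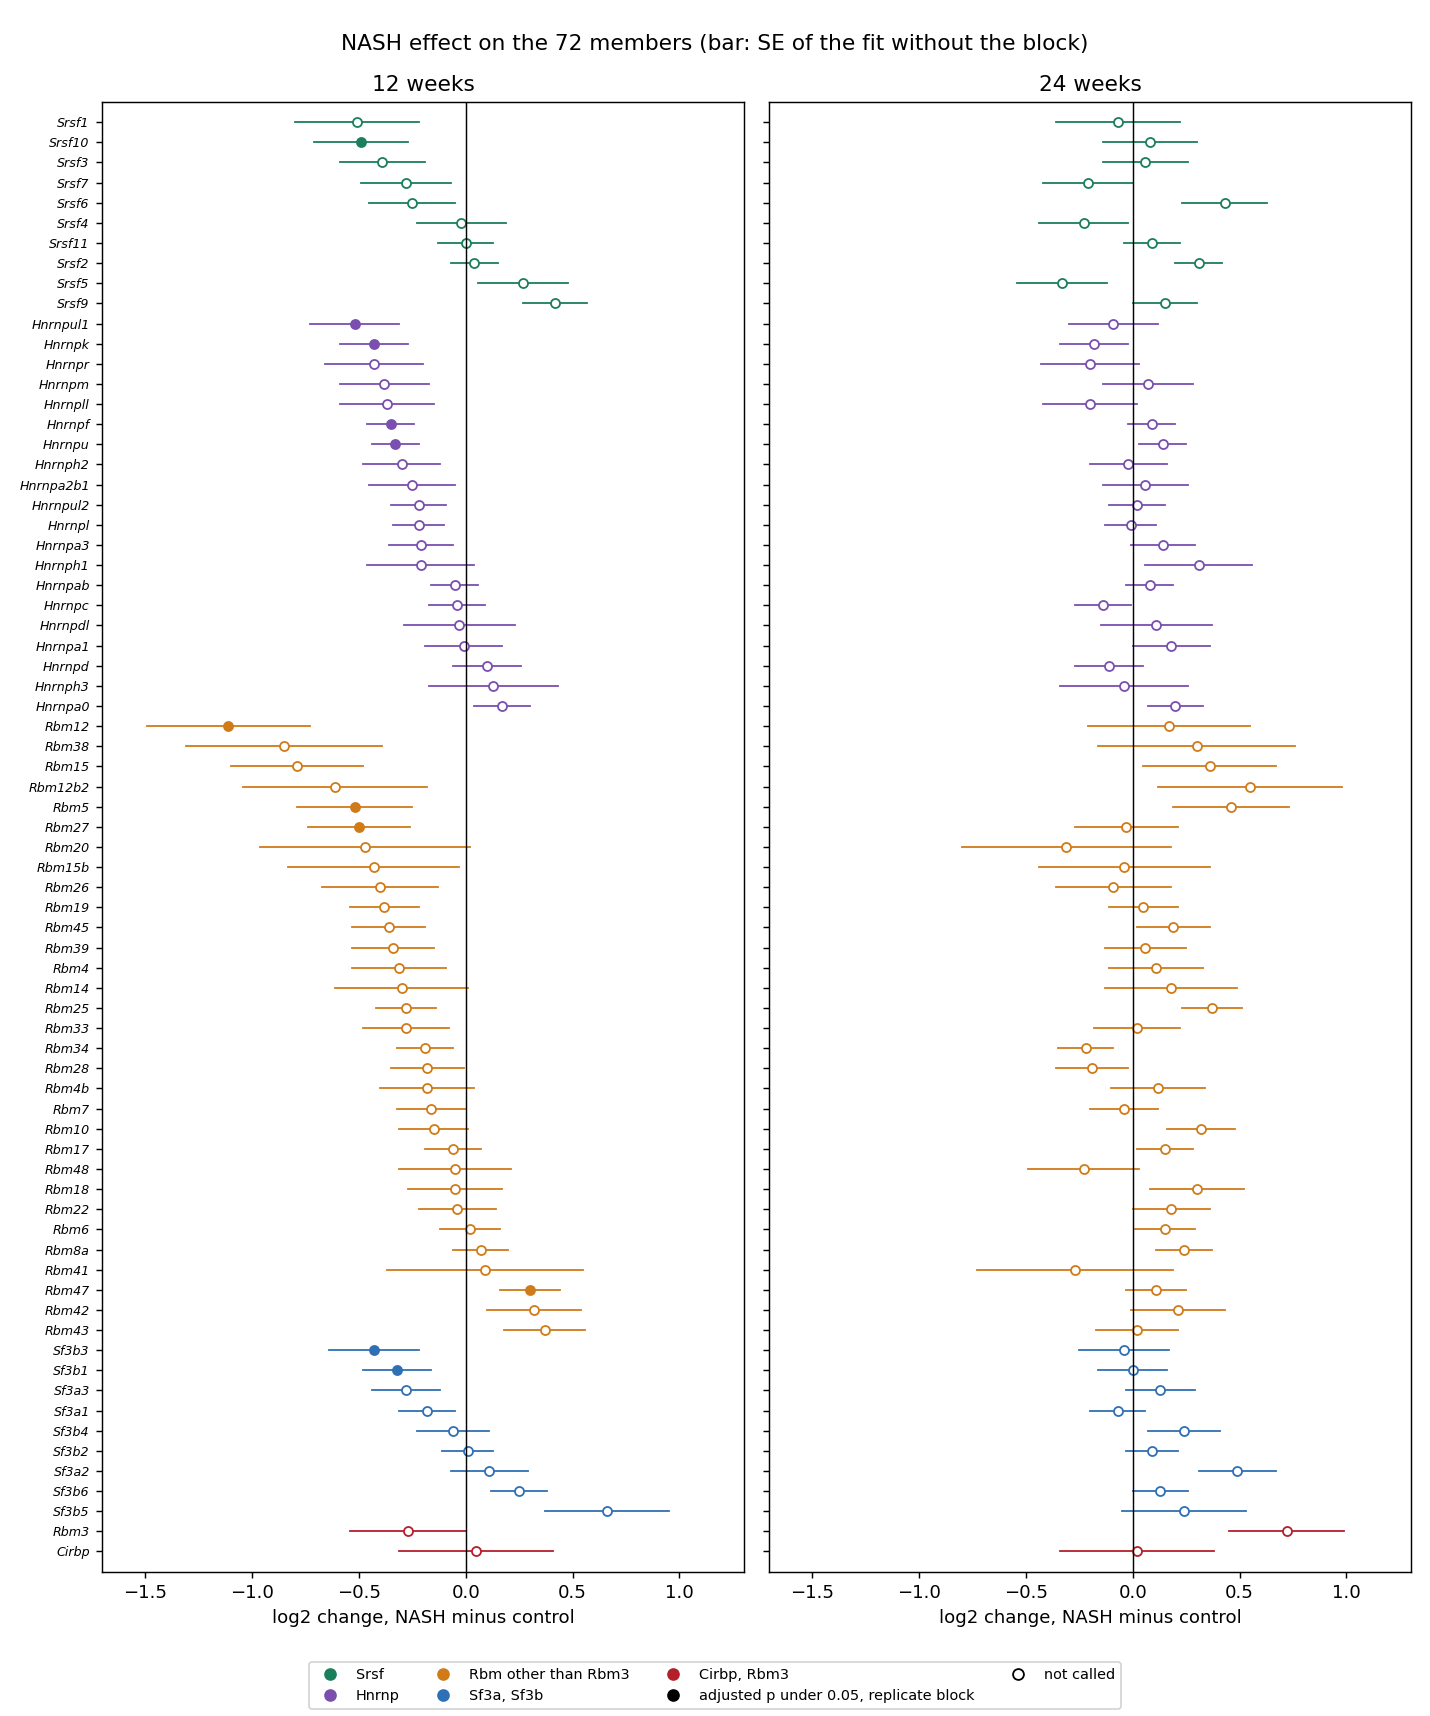
Log2 difference NASH minus control for each of the 72 members at 12 weeks (left) and 24 weeks (right), coloured by family, with bars for the SE of the fit without the block. Filled points passed an adjusted p of 0.05 with the block: 11 at 12 weeks and 0 at 24 weeks.

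These counts moved with the scaling and with single libraries. Under median-of-ratios scaling with the block 2 members rose and 6 fell, against 5.91% and 5.97% of all genes, and the members' median was -0.13 against 0.01 for all genes. With trends on GC content and length removed as well as the block, 1 rose (Rbm47) and 2 fell (Rbm12 and Rbm38), against 0.915% and 1.85% of all genes. The other 9 falls called with the block were then lost: Hnrnpul1 at -0.47 (adjusted limma p 0.0531), Hnrnpf at -0.26 (0.0929), Rbm5 at -0.36 (0.126), Hnrnpk at -0.26 (0.172), Srsf10 at -0.27 (0.217), Sf3b3 at -0.19 (0.295), Rbm27 at -0.14 (0.50), Hnrnpu at -0.09 (0.595) and Sf3b1 at +0.04 (0.837). Leaving out 1 library at a time, with the block, left 0 to 13 calls among members. At 12 weeks there were 0 without replicate 2 and 1 without replicate 3 of the controls. There were 2 without replicate 1 and 3 without replicate 2 of NASH. Calls over all genes fell in these runs too, in the same order to 410, 253, 326 and 596, from 1494 with all libraries. The 13 calls came without replicate 3 of NASH at 12 weeks, with 1103 over all genes. Hepatocyte markers, 4 of 4 measured, summed to 9.73 to 10.49 in control and 11.30 to 12.66 in NASH libraries at 12 weeks on the log2 scale. Erythroid markers, 5 of 5, summed to 10.16 to 10.63 and 10.60 to 12.65, and adipocyte markers, 5 of 5, to 8.57 to 10.29 and 9.76 to 11.20. The part of these cells in the members' values was not tested.

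Of the 20 Hnrnp genes 4 fell at 12 weeks with the block, and Hnrnpk had the smallest blocked p of them. Its protein binds C-rich RNA and also acts in transcription. Hnrnpk (gene ID 15387, chromosome 13, 58391132 to 58402512, minus strand) read 11.75, 11.37 and 11.46 in controls and 11.33, 10.95 and 11.01 in NASH at 12 weeks. All NASH values lay below all control values, and the pairs differed by -0.42, -0.42 and -0.45. It fell by 0.43 with the block (SE 0.08, adjusted limma p 0.0134), and without the block the SE was 0.16 and the adjusted p 0.288. Under median-of-ratios scaling with the block the difference was -0.34, adjusted p 0.0432, and with the block and GC and length trends removed -0.26, adjusted p 0.172. At 24 weeks Hnrnpk read 11.48, 11.11 and 11.37 in controls and 11.36, 10.94 and 11.12 in NASH, again lower in 3 of 3 pairs. Averaged over both times it fell by 0.31 with the block (SE 0.06, adjusted limma p 0.0160), and with trends removed as well the average was -0.21, adjusted p 0.133.

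Hnrnpul1 (gene ID 232989, chromosome 7, 25722039 to 25754720), a relative of Hnrnpu that acts in the DNA damage response, read 9.39, 8.90 and 9.09 in controls and 9.0, 8.43 and 8.39 in NASH. Those groups overlap, since replicate 1 is higher than the rest in both, but each pair was lower in NASH. With the block it fell by 0.52 (SE 0.11, adjusted limma p 0.0164), 0.305 without it. Hnrnpf (gene ID 98758, chromosome 6, 117907804 to 117925622) read 12.08, 12.06 and 12.02 in controls and 11.80, 11.55 and 11.76 in NASH. It fell by 0.35 with the block (SE 0.08, adjusted limma p 0.0264) and had the smallest unadjusted p of the family without it, with an adjusted p of 0.260. Hnrnpu (gene ID 51810, chromosome 1, 178328300 to 178337784), a scaffold protein of nuclear RNA, read 11.92, 11.90 and 11.78 against 11.66, 11.41 and 11.54. It fell by 0.33 with the block (SE 0.08, adjusted limma p 0.0315), 0.281 without it. The last pair missed the threshold under median-of-ratios scaling with the block, at adjusted p 0.0656 and 0.0758.

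In 10 of the 20 Hnrnp genes all NASH libraries lay below all controls at 12 weeks: Hnrnpa2b1, Hnrnpa3, Hnrnpf, Hnrnph2, Hnrnpk, Hnrnpl, Hnrnpll, Hnrnpr, Hnrnpu and Hnrnpul2. In 0 of the 20 all lay above, against 14.4% of all genes lower and 8.14% higher. The Hnrnp differences ranged from -0.52 to +0.17. Hnrnpr read 9.61, 9.46 and 9.52 in controls and 9.35, 8.88 and 9.08 in NASH, with an adjusted limma p of 0.0713 with the block. Hnrnpa1, the best studied splicing repressor of the family, read 9.70, 9.38 and 9.24 against 9.63, 9.23 and 9.44, a difference of -0.01 (SE 0.18). Hnrnpa0 was the highest difference of the family at +0.17 (SE 0.13). Hnrnpa1 overlaps Gm10052 and Hnrnpa3 overlaps Gm6793 on the same strand over their span, so the split of reads between them is uncertain.

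The largest difference among the members was that of Rbm12. Rbm12 (gene ID 75710, chromosome 2, 156094882 to 156111965) read 8.67, 7.93 and 7.76 in controls at 12 weeks and 7.52, 6.27 and 7.26 in NASH. The groups did not overlap, and it fell by 1.11 with the block (SE 0.21, 2.15-fold, adjusted limma p 0.0140), 0.281 without it. Its span lies in that of Cpne1 on the same strand over 17084 bases, so reads of the genes may not be separable. Cpne1 itself read 9.53, 9.0 and 9.10 against 9.19, 8.80 and 8.98, a difference of -0.22, adjusted limma p 0.164 with the block. At 24 weeks Rbm12 read 8.09, 7.11 and 7.07 in controls and 7.92, 7.38 and 7.47 in NASH, a difference of +0.17 (SE 0.38).

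Rbm27, which takes part in nuclear RNA decay, read 9.17, 8.64 and 8.73 at 12 weeks without NASH and 8.72, 8.02 and 8.31 with it. Rbm27 fell by 0.50 with the block (SE 0.10, adjusted limma p 0.0152), 0.370 without it, in groups that overlap. Rbm5 (gene ID 83486, chromosome 9, 107740495 to 107771002), a regulator of apoptotic splice variants, read 9.84, 9.68 and 9.45 against 9.41, 8.92 and 9.08 and fell by 0.52 (SE 0.14, adjusted limma p 0.0399 with the block, 0.394 without). Rbm15, an adaptor of the m6A methyltransferase, showed tight groups at 7.52, 7.46 and 7.37 against 6.74, 6.61 and 6.62. Its difference of -0.79 (SE 0.31) had an adjusted limma p of 0.297, and 0.103 with the block. Its paralogue Rbm15b read 7.56, 7.34 and 6.99 against 7.28, 6.80 and 6.52, a difference of -0.43 (SE 0.40).

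Rbm47 (gene ID 245945, chromosome 5, 66016549 to 66151954), an RNA-binding partner of the apolipoprotein B editing enzyme, was the member that rose with the block. It read 11.05, 11.20 and 11.23 in controls and 11.21, 11.61 and 11.56 in NASH, higher in 3 of 3 pairs. It rose by 0.30 (SE 0.08, adjusted limma p 0.0437 with the block, 0.364 without), and by 0.39 under median-of-ratios scaling with the block, adjusted p 0.0356. Replicate 1 of NASH lay below the highest control, so the groups overlap. Rbm43 read 7.17, 7.05 and 7.02 against 7.36, 7.27 and 7.73 without overlap, a difference of +0.37 with an adjusted limma p of 0.159 with the block. The 31 Rbm differences at 12 weeks ran from -1.11 to +0.37.

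**Figure D3:**
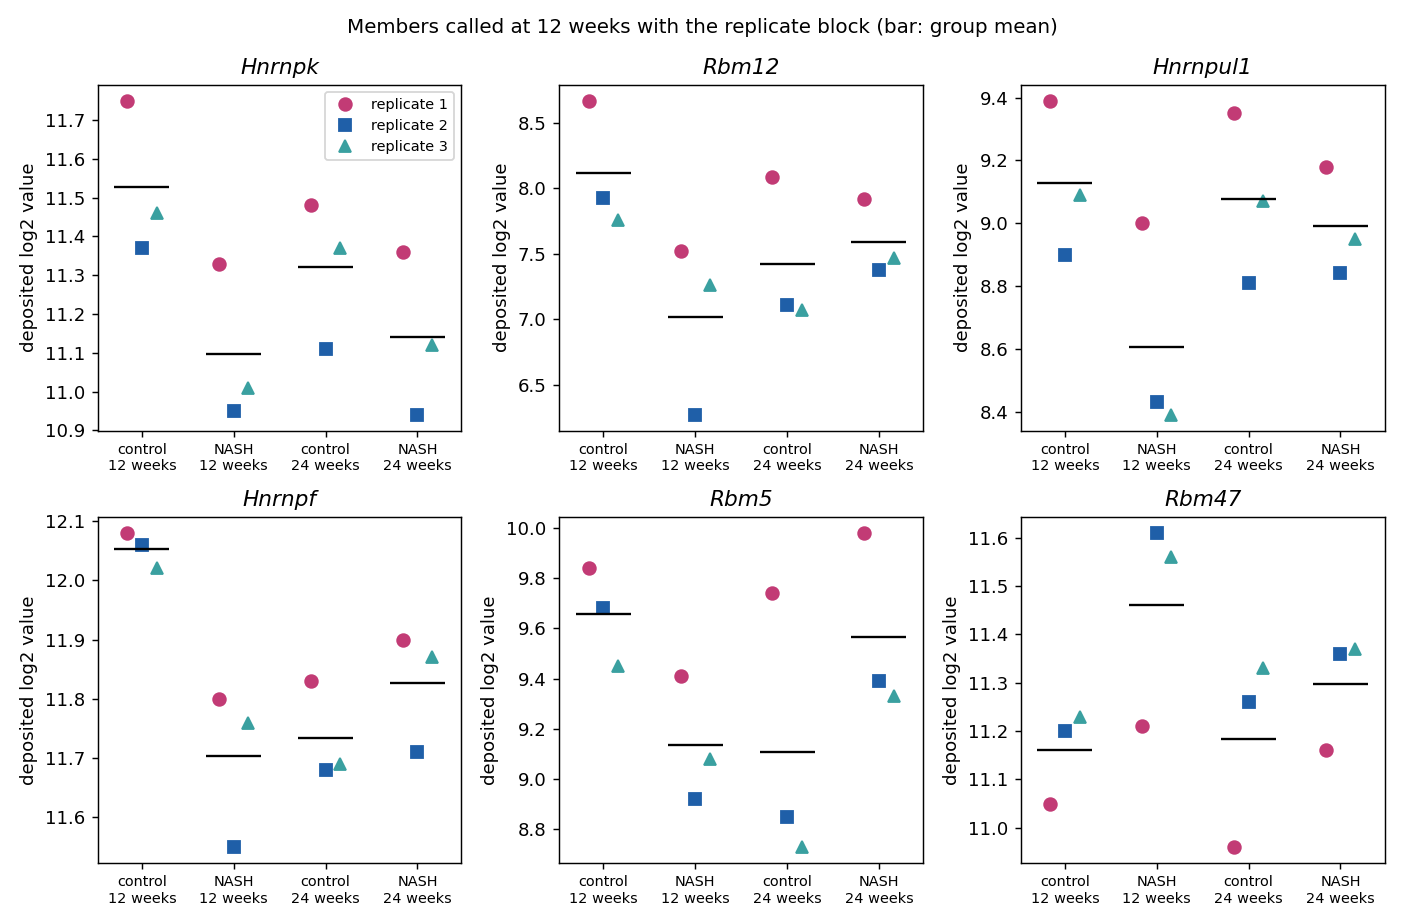
Deposited log2 values of 6 of the 11 members called at 12 weeks with the block, by group, with symbols for replicates 1, 2 and 3 and bars for group means. The NASH library lies below its same-numbered control at 12 weeks for Hnrnpk, Rbm12, Hnrnpul1, Hnrnpf and Rbm5, and above it for Rbm47.

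Of the SR protein genes Srsf10 was called. Srsf10 (gene ID 14105, chromosome 4, 135856071 to 135869899), a splicing repressor when dephosphorylated after heat shock, read 9.22, 8.94 and 8.96 in controls and 8.68, 8.38 and 8.58 in NASH, with no overlap. It fell by 0.49 with the block (SE 0.14, adjusted limma p 0.0411), 0.344 without it and 0.0587 with the block under median-of-ratios scaling. Srsf3 read 10.75, 10.66 and 10.64 against 10.48, 10.01 and 10.40, a difference of -0.39, adjusted limma p 0.0705 with the block. Srsf9 was the reverse, at 8.11, 8.36 and 8.38 against 8.71, 8.76 and 8.63, a difference of +0.42 (SE 0.15) with an adjusted limma p of 0.0620 with the block. Under median-of-ratios scaling with the block Srsf9 was higher by 0.50, adjusted p 0.0397. Srsf1, at 7.09, 6.75 and 6.81 against 6.82, 6.44 and 5.87, differed by -0.51 (SE 0.29).

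In the branch point complexes Sf3b1 and Sf3b3 fell and Sf3a genes did not pass the test. Sf3b3 (gene ID 101943, chromosome 8, 110810492 to 110846803), a scaffold of SF3B, read 10.17, 9.80 and 9.73 against 9.65, 9.37 and 9.36 at 12 weeks. It fell by 0.43 with the block (SE 0.10, adjusted limma p 0.0245), 0.374 without it. Sf3b1 (gene ID 81898, chromosome 1, 54985170 to 55027478), the subunit that holds the branch point, read 11.49, 11.31 and 11.21 against 11.17, 10.83 and 11.05 and fell by 0.32 (SE 0.09, adjusted limma p 0.0476 with the block, 0.373 without). With trends on GC content and length removed, its blocked difference was +0.04. Sf3b5, a small subunit, read 7.16, 8.23 and 8.15 against 8.75, 8.67 and 8.09, a difference of +0.66 (SE 0.29) that came mostly from replicate 1.

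Of the genes listed beside these families in the splicing machinery, 0 were called at 12 weeks without the block. With the block more fell than rose, as among all genes, of which 3.01% rose and 9.85% fell. Of 18 splicing kinases and SR-type regulators, all measured, 3 fell with the block: Son by 0.66, Scaf11 by 0.60 and the SR protein kinase Srpk1 by 0.54 (adjusted limma p 0.00860, 0.0134 and 0.0305). Their median was -0.29. The kinases Clk1 and Clk4, which phosphorylate SR proteins and respond to temperature, differed by -0.31 (SE 0.27) and +0.04 (SE 0.24). Of 37 measured genes of the spliceosome core, of 38 listed, 1 rose and 8 fell, with a median of -0.03. Lsm4 rose by 0.52 (adjusted limma p 0.0269 with the block) and the helicase gene Dhx15 fell by 0.68 (adjusted limma p 0.00859 with the block). Of 31 measured other regulators, of 32 listed, 1 rose and 4 fell, with a median of -0.15. Esrp2, an epithelial splicing regulator, rose by 0.98 (adjusted limma p 0.0330 with the block) and Syncrip, an hnRNP-like gene outside the symbol rule, fell by 1.11 (adjusted limma p 0.00421 with the block). At 24 weeks 0 genes of these lists were called in either fit.

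At 24 weeks 0 members were called in NASH against control. Of all genes 0% were called without the block and, with it, 0% higher and 0.00861% lower. The median difference of the members was +0.08 against +0.01 for all genes, and 48 of 72 were positive against 52.1% of all genes. In 7 members all NASH libraries lay above all controls (9.72%) and in 0 all lay below, against 4.56% and 2.65% of all genes. They were Hnrnpa0, Rbm3, Rbm45, Rbm8a, Sf3a2, Sf3b4 and Srsf2. Marker sums moved with the groups at this time too. Adipocyte markers summed to 10.56 to 14.02 in control and 8.97 to 10.56 in NASH libraries, and the 14.02 was replicate 1 of the controls. Hepatocyte markers summed to 9.46 to 9.89 and 9.77 to 11.85, erythroid markers to 9.46 to 10.67 and 10.54 to 12.09, and macrophage markers, 5 of 5 measured, to 9.61 to 10.79 and 10.46 to 11.51. Their part in the members' values was not tested. Without that control library 0 members were called at 24 weeks with or without the block, as with all libraries. Of all genes 0 were then called without the block and 1 with it, so this omission cannot show the part of that library. With all 12 libraries, 4 members were higher and 0 lower at an unadjusted limma p under 0.05, against 1.89% and 1.09% of all genes. With the block 10 were higher and 1 lower, against 5.08% and 4.60%.

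Those 4 were Rbm3, Sf3a2, Srsf2 and Rbm25, all with an adjusted limma p of 0.999. Sf3a2, a subunit of SF3A, read 8.58, 8.30 and 8.24 in controls and 8.91, 8.88 and 8.79 in NASH, a difference of +0.49 (SE 0.18). Srsf2, an SR protein that stays in the nucleus, read 10.19, 10.13 and 10.12 against 10.54, 10.50 and 10.32, a difference of +0.31 (SE 0.11). Rbm25, which controls the splicing of apoptosis genes, read 9.60, 9.15 and 9.27 against 9.74, 9.80 and 9.60, a difference of +0.37 (SE 0.14). Each was higher in NASH in 3 of 3 pairs. Next in their families were Srsf6 at +0.43 (SE 0.20), Sf3b4 at +0.24 (SE 0.17), Rbm10 at +0.32 (SE 0.16), Hnrnpa0 at +0.20 (SE 0.13) and Hnrnpu at +0.14 (SE 0.11), each at an adjusted limma p of 0.999. Hnrnpk, Hnrnpul1 and Rbm27 stayed below control at 24 weeks, by 0.18, 0.09 and 0.03 in mean. Averaged over both times these 3 members fell with the block (adjusted limma p 0.0160, 0.0335 and 0.0418), against 3.03% of all genes higher and 7.36% lower, and 0 members were called without it, against 0% of all genes. With GC and length trends removed beside the block, none of these 3 calls remained: Hnrnpk was at -0.21, Hnrnpul1 at -0.28 and Rbm27 at -0.03 (adjusted limma p 0.133, 0.0861 and 0.838), and Rbm47 was the member called, higher by 0.39. Under median-of-ratios scaling with the block Hnrnpul1 and Rbm27 also missed the threshold (adjusted limma p 0.0635 and 0.0585). At an unadjusted limma p under 0.05 without the block, 2 members were higher and 1 lower in that average, against 6.03% and 7.57% of all genes.

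**Figure D4:**
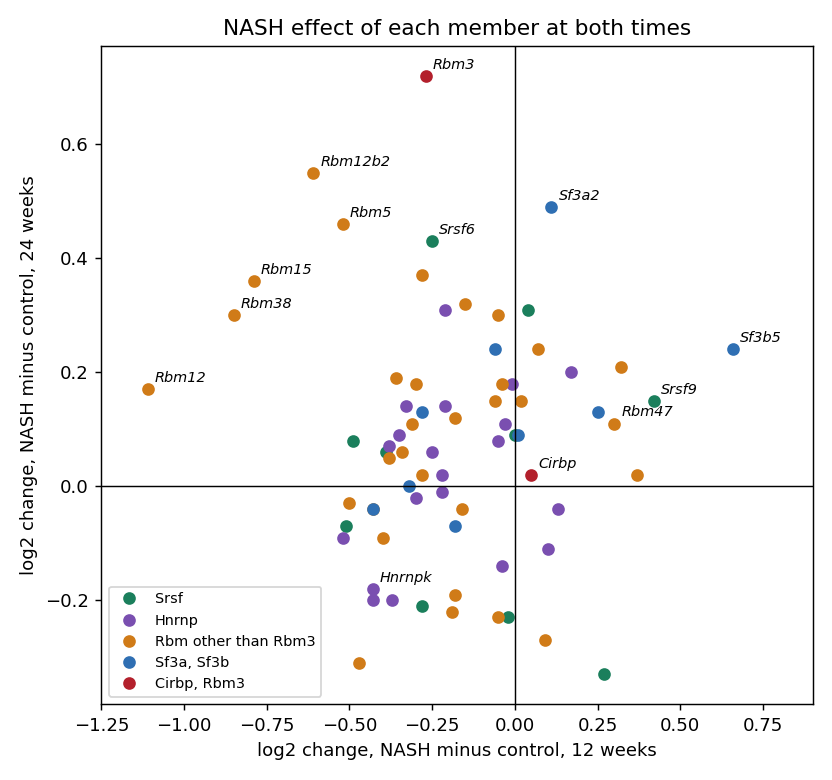
Log2 difference NASH minus control of each member at 12 weeks (horizontal axis) against that at 24 weeks (vertical axis), coloured by family. Most points are to the left of 0 (55 of 72) and above 0 (48 of 72), with Rbm12 farthest to the left at -1.11 and Rbm3 highest at +0.72.

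The difference between the NASH effects at 24 and 12 weeks was called for 0 members in either fit, against 0% of all genes without the block and 0.00861% higher with it. As deposited it was positive in 56 of 72 members against 62.3% of all genes, with a median of +0.27 against +0.09. Under median-of-ratios scaling the medians were +0.176 and -0.004, and with the block and GC and length trends removed +0.142 and +0.01. At an unadjusted limma p under 0.05, 9 members were higher and 0 lower (2.43% and 1.23% of all genes), and with the block 21 and 0 (10.0% and 2.78%). In replicates 2 and 3 alone 2 members passed, Rbm3 and Rbm5, against 0.431% of all genes higher. Rbm5 read 9.74, 8.85 and 8.73 in controls and 9.98, 9.39 and 9.33 in NASH at 24 weeks, and its difference between the times was 0.98 (SE 0.38, adjusted limma p 0.137 with the block) in all libraries and 1.14 in replicates 2 and 3 (adjusted limma p 0.0375).

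Between 12 and 24 weeks 0 members were called in controls or in NASH with all libraries, against 0% of all genes. At an unadjusted limma p under 0.05, 0 were higher and 9 lower at 24 weeks in controls, against 2.97% and 4.86% of all genes, and 4 were higher and 1 lower in NASH, against 2.63% and 2.14%. In controls 52 members were lower at 24 than at 12 weeks and 20 higher, with a median of -0.19 against -0.08 for all genes. All 24-week control libraries were below all 12-week ones in 9 members (Hnrnpa3, Hnrnpf, Hnrnpu, Hnrnpul2, Rbm15, Rbm17, Rbm25, Sf3b6 and Srsf3) and above in 2 (Srsf11 and Srsf4), against 7.38% and 4.72% of all genes. In replicates 2 and 3 alone 7 members were lower at 24 weeks in controls, against 4.17% of all genes lower and 2.33% higher. They were Rbm5 (-0.78), Hnrnpa2b1 (-0.52), Srsf6 (-0.66), Srsf3 (-0.64), Rbm12b2 (-1.52), Hnrnpa3 (-0.47) and Rbm15 (-1.19), with adjusted limma p-values from 0.0107 to 0.0496. Srsf6, an SR protein, read 10.66, 10.56 and 10.48 in controls at 12 weeks and 10.53, 9.91 and 9.82 at 24 weeks, so replicate 1 moved least. In NASH the median was +0.11 against +0.02 for all genes. All 24-week NASH libraries were above the 12-week ones in 4 members (Hnrnpl, Rbm3, Rbm38 and Sf3a2) and below in 2 (Hnrnpab and Sf3b6), against 4.06% and 4.37%. In replicates 2 and 3 alone 4 members were higher in NASH at 24 weeks (Rbm3, Rbm38, Srsf11 by 0.54 and Sf3a2 by 0.64), against 2.51% of all genes higher and 2.14% lower. The controls at 12 weeks enter both the NASH difference at 12 weeks and the time difference in controls.

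Replicate 1 differed from replicates 2 and 3 in many members. As deposited 36 members were higher in replicate 1 and 4 were lower, 40 of 72 in all, against 37.9% and 10.1% of all genes. Under median-of-ratios scaling 12 were higher and 11 lower, against 20.8% and 20.8%. By family 5 Srsf, 14 Hnrnp, 13 Rbm and 4 Sf3a or Sf3b genes were higher as deposited. The 4 lower members were Cirbp, Rbm3, Rbm38 and Rbm47, and all 4 were lower under both scalings and with trends on GC content and length removed. Rbm38 was lower by 0.91 (SE 0.20, adjusted limma p 0.00276), or 1.11 under median-of-ratios scaling. Rbm47 was lower by 0.27 (SE 0.06, adjusted limma p 0.00417), or 0.46. Rbm47 and Cirbp thus stood on the same side of this split, but Rbm47 was higher in NASH at 12 weeks in all 3 pairs and Cirbp in 1.

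Rbm20 was the member highest in replicate 1. It read 6.97, 6.15 and 5.89 in controls and 6.53, 5.61 and 5.47 in NASH at 12 weeks. At 24 weeks it read 7.39, 5.98 and 6.13 in controls and 6.90, 6.12 and 5.56 in NASH. The lowest replicate 1 value, 6.53, lay above the highest of the others, 6.15. Rbm20 was higher by 1.08 (SE 0.17, adjusted limma p 0.000453), or 0.89 under median-of-ratios scaling (adjusted limma p 0.00136). The difference was 0.72 under quantile normalization and 0.68 with GC and length trends removed (adjusted limma p 0.00477 and 0.00527). The other members higher both as deposited and under median-of-ratios scaling were Hnrnph1, Hnrnph3, Hnrnpr, Rbm5, Rbm12, Rbm14, Rbm18, Rbm26, Rbm27, Rbm41 and Sf3b3. Under median-of-ratios scaling Hnrnpab, Rbm8a, Sf3b5, Sf3b6, Srsf2, Srsf4 and Srsf9 joined the 4 lower members. Podocyte markers, 4 of 4 higher in replicate 1, summed to 13.35 to 13.70 there against 12.00 to 12.65, and 4 of 4 markers of the loop of Henle and distal tubule to 15.76 to 16.73 against 14.61 to 15.95. Endothelial markers, 3 of 4 higher, summed to 11.89 to 12.36 against 10.38 to 11.84. Of all genes 37.9% were called higher in replicate 1 as deposited and 10.1% lower. Erythroid markers (3 of 5 higher) summed to 10.16 to 12.65 against 9.46 to 11.58. Collecting duct markers (2 of 4 higher) summed to 12.60 to 13.14 against 12.23 to 12.96. For adipocyte markers (1 of 5 higher) the sums were 8.97 to 14.02 against 8.57 to 11.16. Proximal tubule markers (2 of 7 higher, 1 lower) gave 19.40 to 19.59 against 19.07 to 19.77. Of macrophage markers 1 of 5 was higher, and of fibroblast and smooth muscle markers 1 of 4. The part of these cells in the members' values was not tested, and the split that Xist marks and the cell makeup cannot be told apart here.

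**Figure D5:**
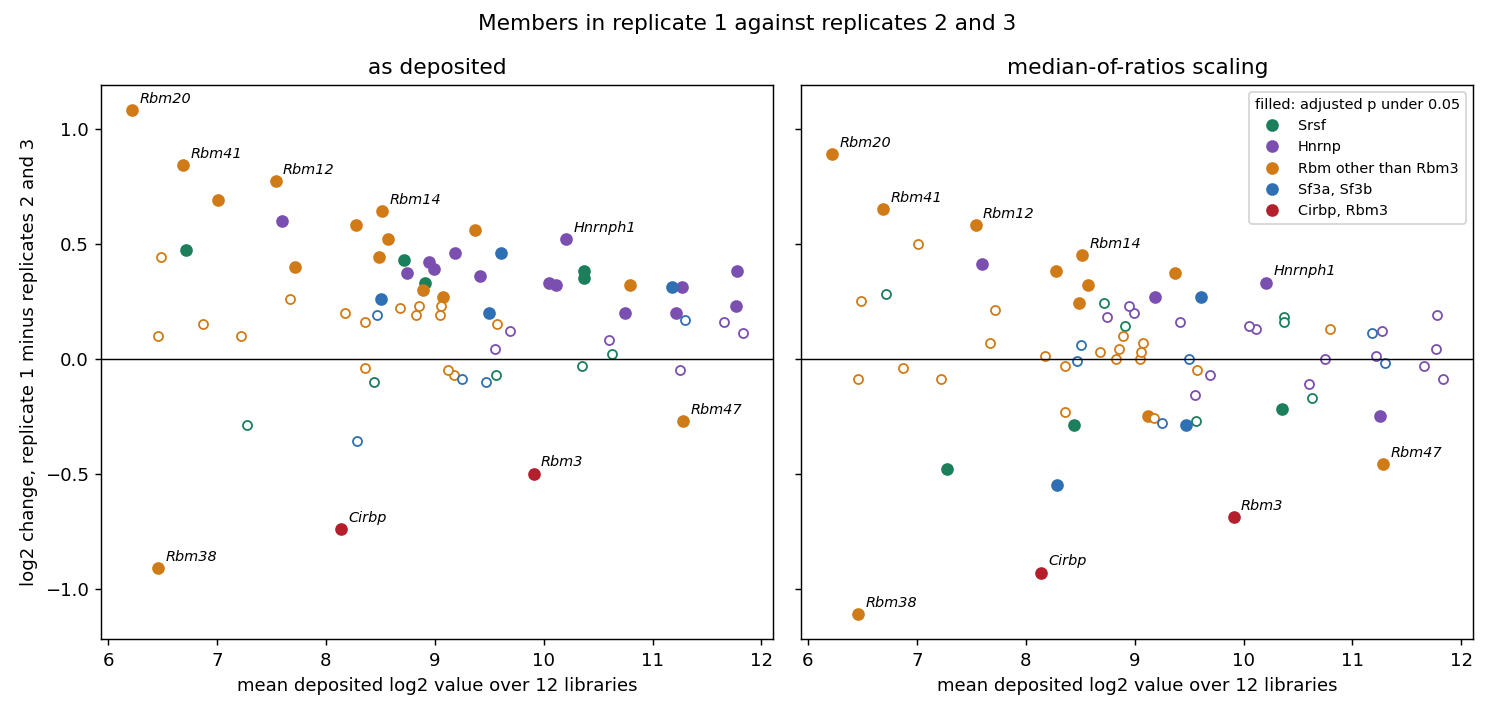
Log2 difference of replicate 1 minus replicates 2 and 3 for each member against its mean log2 value over 12 libraries, as deposited (left) and under median-of-ratios scaling (right); filled points passed an adjusted p of 0.05. Cirbp, Rbm38, Rbm3 and Rbm47 are filled and below 0 in both panels, and Rbm20 is filled and highest in both.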

How the data were processed

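RNA-seq of kidney cortex was analysed in 12 libraries, 3 in each of 4 groups taken from the sample labels. The authors deposited log2 values, 1 column per library, for 11614 genes. Per the submitters' processing notes BWA, limma and the mm10 build were used, and neither versions nor the step each served are given in the sources used here. In each library 85.9% to 91.1% of values below 60 steps were whole multiples of 1 step within 0.01. The values were therefore read as read counts times 1 factor per library. With geometric means of whole multiples allowed the share was 98.2% to 100.0%. This larger share adds little, since any of the higher values among these passes that rule. How transcripts of a gene were joined is not stated; 33 of the 72 members have several. The depth, 7170000 to 14050000 reads, was estimated from the step.

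The fit was limma 3.58.1 in R 4.3.3 with 4 group means, a mean-variance trend and the Benjamini-Hochberg method over all genes; no block was used in the fit named first. Same-numbered libraries deviated together in all 18 pairs across groups (correlation 0.19 to 0.74, minimum asked 0.1). Replicates 2 and 3 correlated at 0.19 to 0.64, and replicate 1 with either at -0.70 to -0.27. The replicate number was taken as a pairing from the data and not from the labels, and the data set apart replicate 1 only. The matching of replicates 2 and 3 across groups, on which the block also rests, is therefore assumed. The scripts were tested on simulated data. Alternatives were the block, median-of-ratios and quantile scaling, removal of a spline trend (5 degrees of freedom) on GC content and length, no mean-variance trend, a minimum mean log2 of 8, replicates 2 and 3 only, only the compared groups, and leaving out each library. The replicate 1 comparison, its interaction with NASH, the block with replicates 2 and 3, and the block without the trend were added after seeing the data.

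Named genes were Cirbp and Rbm3, members called in either fit (up to 10 per direction), the pair of smallest p in each family, the highest and lowest by mean level, and the 5 genes most and least correlated with Cirbp and Rbm3. Predicted or clone-named loci were left out of those correlations. Other members named were chosen after their values were seen. The members and gene lists were chosen with earlier results of these data known. Gene spans are from the deposited files, with starts raised by 1. GC content of transcripts is from GENCODE sequences, matched by RefSeq accession or else by symbol. Promoter windows are from RefSeq (GRCm38.p6).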

Additional observations from a re-analysis of the deposited data

How the results depend on the processing

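Counts of called members depended on the replicate block. For NASH at 12 weeks, with 0 calls in the fit without it, there were 11 with the replicate block, 8 with the block and median-of-ratios scaling, 9 with the block and quantile normalization, 3 with the block and GC and length trends removed, and 5 with the block and no mean-variance trend. Calls over all genes in these fits, in the same order, were 6, 1494, 1379, 1230, 320 and 926. Replicates 2 and 3 alone gave 1 call, and 4 with the block, against 385 and 632 over all genes. Leaving out 1 library at a time gave 0 to 13 calls, all of those above 0 with the block. Over all genes these omissions gave 253 to 1533 calls with the block. Averaged over both times there were 3 calls with the block, all lower, against 3.03% of all genes higher and 7.36% lower. With median-of-ratios scaling beside the block there was 1 call, lower. With GC and length trends removed beside the block there was 1 call, higher, and with quantile normalization 2, 1 in each direction. There were 3 without the trend, all lower, and 0 to 3 without 1 library.

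Replicates 2 and 3 gave 2 calls for the difference of the NASH effects with or without the block, 7 for time in controls (6 with the block) and 4 for time in NASH (4 with the block). Shares of all genes called higher and lower there without the block were 0.431% and 0.198%, 2.33% and 4.17%, and 2.51% and 2.14%. For these contrasts, leaving out 1 library gave 0 to 1, 0 to 2 and 0 to 2 calls among members. NASH at 24 weeks had 0 calls in every alternative run. The replicate 1 comparison had 40 calls, 23 under median-of-ratios scaling, 21 with GC and length trends removed and 27 to 43 without 1 library. Of all genes 37.9% were higher and 10.1% lower in it as deposited, and 20.8% and 20.8% under median-of-ratios scaling. The interaction of replicate 1 with NASH had 0 calls among members throughout. The block also changed calls of listed genes at 12 weeks, as it did over all genes. Of all genes 0.0172% were higher and 0.0344% lower without it, and 3.01% and 9.85% with it. Clock genes went from 1 higher and 1 lower to 8 and 4. Splicing kinases and SR-type regulators went from 0 calls to 3 lower. Spliceosome core genes went from 0 to 1 higher and 8 lower, and other regulators from 0 to 1 higher and 4 lower.

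The sign of the Cirbp difference was not stable. At 12 weeks it was -0.10 with the block and trends removed, -0.25 in replicates 2 and 3 with or without the block, and -0.31 to 0.23 without 1 library. At 24 weeks these were -0.07, -0.19 and -0.37 to 0.27, and for the difference of the times 0.02, 0.06 and -0.41 to 0.33. Cirbp over time in controls was -0.05 to 0.70 without 1 library. Sf3b1 at 12 weeks was 0.04 with the block and trends removed. The Rbm3 gap difference was -0.03 to 0.73 without 1 library. The causes were not tested. Where a group is left with 2 libraries, the spread is taken from all groups, and depth limits the low members, such as Rbm20, most.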
